A study of Homo sapiens with 6 samples.

Results

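Synaptotagmins, SNAREs and the proteins that act on them form the machinery by which vesicles fuse with their target membranes. The genes described here are the rows of the count table whose symbol belongs to the SYT, SYTL, STX, STXBP or VAMP families, or is SNAP23, SNAP25, SNAP29, SNAP47, NSF or NAPA. The symbols matched 60 rows, and without the pseudogene VAMP9P 59 genes were left among the 58735 rows of the table. They comprise 18 synaptotagmins, 5 synaptotagmin-like genes, 16 syntaxins, 7 syntaxin-binding protein genes, 7 VAMP genes, 4 SNAP genes, and NSF and NAPA.

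RNA was sequenced from 3 cultures of PANC1OR and 3 cultures of PANC1, with 1 library per culture. PANC1OR was selected by passaging PANC1 with ever more oxaliplatin, a platinum compound that crosslinks DNA, until the cells grew stably without it, and the sources used here do not say if the drug was still present at harvest. PANC1, the untreated parent, is an established human pancreatic duct carcinoma line. PANC1OR is a single derived subline, so each p-value reflects how far cultures of these 2 lines scatter and says nothing of other resistant lines.

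In vesicle fusion, a VAMP on the vesicle pairs with a syntaxin and a SNAP on the target membrane to form a 4-helix bundle that pulls the membranes together. Proteins of the STXBP family hold or release the syntaxin, synaptotagmins bind calcium or phospholipid through their C2 domains and set when fusion occurs, and NSF with its adaptor NAPA takes the used bundle apart. Synaptotagmin-like proteins tether vesicles that carry the small GTPase RAB27. In epithelial cells the same machinery delivers secretory granules and membrane proteins to the cell surface, whereas SYT1, STX1A, SNAP25 and VAMP2 are best known from neurons and endocrine cells.

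Reads assigned to genes numbered 12623721 to 26394388 per library in PANC1OR and 10199268 to 15875431 in PANC1. PANC1OR replicate 3 stood apart from replicates 1 and 2: the median log2 difference was 1.33 for genes above 60% GC and -0.97 for genes below 40% GC. PANC1 replicate 2 differed from replicates 1 and 3 the same way to a smaller extent, at 0.34 and -0.25. Of 8 epithelial duct markers all had reads, with summed levels of 687 to 1401 CPM (reads of a gene scaled to an equal library total) in PANC1OR and 1072 to 1959.9 CPM in PANC1. KRT19, SOX9 and CDH1 of these were called lower in PANC1OR, and the call of SOX9 was lost in 5 of the 6 fits without 1 library.

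Of the 59 genes 45 had enough reads to be tested, and by edgeR's quasi-likelihood test with Benjamini-Hochberg adjustment over all genes 8 were higher and 1 was lower in PANC1OR. Among all 18751 tested genes 10.3% were called higher and 7.5% lower, 17.8% in all, so the 9 calls, which are 20% of the 45, are close to the general share. The median log2 fold change (PANC1OR minus PANC1) was 0.22 over the 45 genes and 0.04 over all tested genes. Among those that rose were SYT1, SYT9, SYTL2, STX1A, STX3, STX11 and VAMP5, and SYT11 fell. In 16 of the 45 genes every PANC1OR library lay above every PANC1 library and in 6 every one lay below, beside 18.9% and 17.6% of all tested genes. The 9 calls were made again without PANC1OR replicate 3, and again with GC offsets, which remove each library's own trend with GC.

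**Figure D1:**
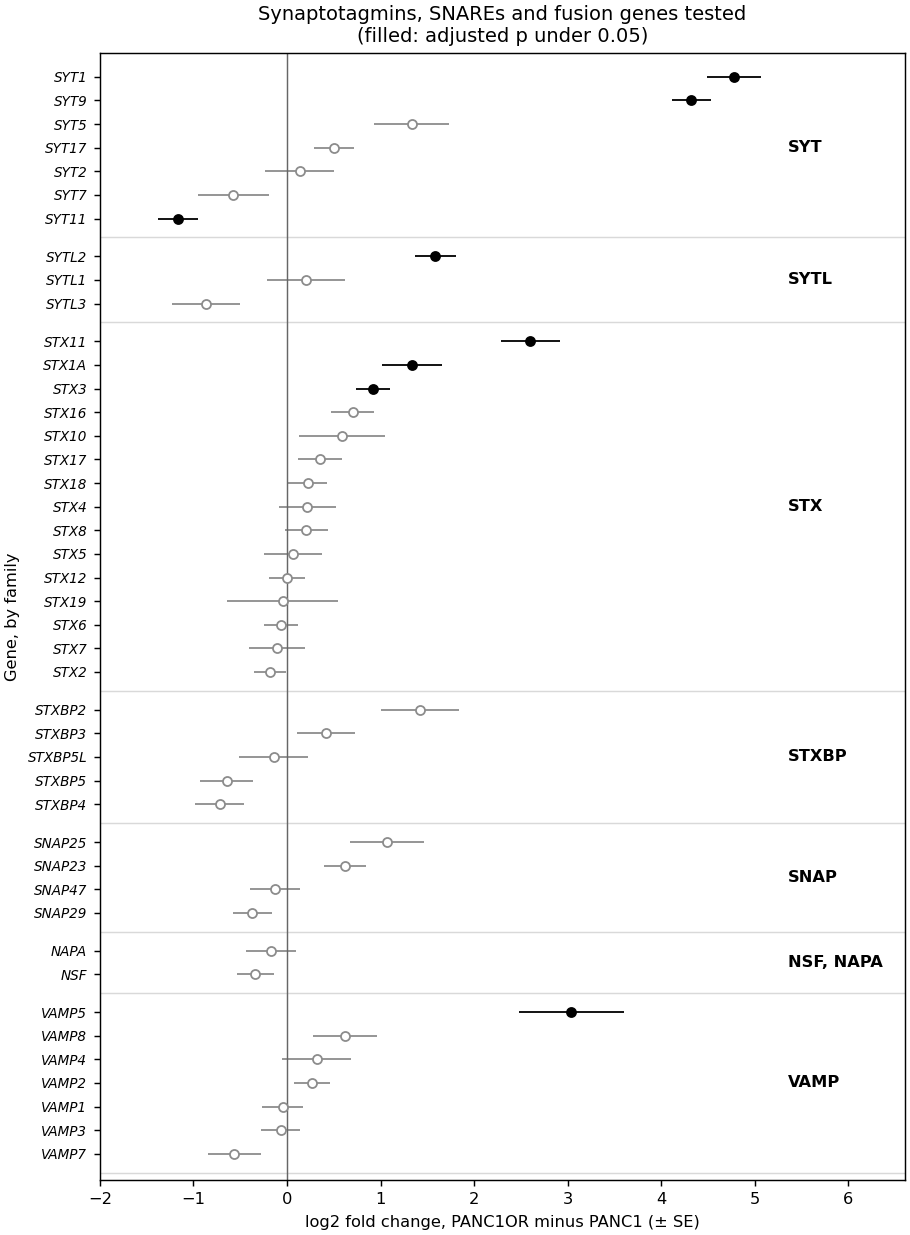
Log2 fold change (PANC1OR minus PANC1, horizontal axis) of 43 of the tested genes, grouped by family, with bars for the SE and filled points for an adjusted p under 0.05. SYT1 and SYT9 lie at 4.78 and 4.32, and none of the plotted SNAP, STXBP, NSF and NAPA genes has a filled point.

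The largest changes were in the synaptotagmins. SYT1, the calcium sensor of fast transmitter release, was at 130.5, 125.5 and 79.4 CPM in PANC1OR replicates 1 to 3, against 4.61, 3.24 and 4.28 CPM in PANC1. The lines lay far apart, and PANC1OR replicate 3 was the lowest of its line. The means were 112 ± 28.1 and 4.04 ± 0.715 CPM (SD, n = 3 each), a ratio of 27.7, or 4.78 ± 0.29 (SE) as log2 fold change (edgeR adjusted p = 4.55e-05). An unnamed gene on the opposite strand that overlaps SYT1 (ENSG00000257191) had 130 reads over PANC1OR and 2 over PANC1. In bulk RNA more cells with the transcript and more transcript per cell cannot be told apart.

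SYT9, a calcium-binding synaptotagmin known from dense-core vesicle release in rodent neuroendocrine and insulin-secreting cells, was at 149, 153 and 151 CPM in PANC1OR, against 6.41, 7.94 and 8.26 CPM in PANC1. The values were tight within each line, PANC1OR replicate 3 included. The log2 fold change was 4.32 ± 0.20 (adjusted p = 1.62e-05 by edgeR), with means of 151 ± 2.10 and 7.54 ± 0.986 CPM. SYT9-AS1, an annotated transcript on the opposite strand that overlaps SYT9, was at 33.4 ± 6.71 CPM in PANC1OR and 2.79 ± 0.523 CPM in PANC1 (3.57 ± 0.27). No source used here gives the strand setting of the counting, so reads of this pair cannot be told apart.

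SYT11 (ENSG00000132718, GRCh38 chromosome 1, 155859567 to 155885199, plus strand), which cannot bind calcium in the manner of SYT1 and is known as a brake on endocytosis in rodent neurons, moved the other way. It was at 7.70, 9.30 and 7.84 CPM in PANC1OR, against 15.9, 20.6 and 19.3 CPM in PANC1, and the lines did not overlap. The log2 fold change was -1.17 ± 0.22 (adjusted p = 0.00746 by edgeR), and the adjusted p was at most 0.0494 in the fits without 1 library.

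The promoters of these 3 genes are printed because SYT1 and SYT9 had the highest log2 fold changes of the tested genes here and SYT11 is the gene that fell. They run from 250 bases before to 50 bases after the RefSeq gene start on GRCh38.p14, plus strand, at chr12:78864524-78864823 for SYT1, chr11:7251654-7251953 for SYT9 and chr1:155859317-155859616 for SYT11. Capitals mark matches on either strand to the GC box GGGCGG, the CCAAT box, the TATA box element TATAAA, the E-box CACGTG, the AP-1 element TGANTCA or the cyclic AMP response element TGACGTCA.
SYT1: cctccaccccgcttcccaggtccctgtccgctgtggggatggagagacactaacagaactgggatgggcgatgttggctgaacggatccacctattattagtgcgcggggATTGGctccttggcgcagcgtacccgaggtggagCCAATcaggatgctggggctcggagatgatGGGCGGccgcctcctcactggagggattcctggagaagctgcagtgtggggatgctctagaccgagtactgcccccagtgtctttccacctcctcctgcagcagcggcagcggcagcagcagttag
SYT9: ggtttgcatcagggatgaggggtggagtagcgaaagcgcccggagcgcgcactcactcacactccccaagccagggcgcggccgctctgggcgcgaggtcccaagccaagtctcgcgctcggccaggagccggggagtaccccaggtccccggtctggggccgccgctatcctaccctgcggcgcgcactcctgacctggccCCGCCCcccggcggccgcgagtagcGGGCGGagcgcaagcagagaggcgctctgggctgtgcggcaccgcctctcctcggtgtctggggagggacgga
SYT11: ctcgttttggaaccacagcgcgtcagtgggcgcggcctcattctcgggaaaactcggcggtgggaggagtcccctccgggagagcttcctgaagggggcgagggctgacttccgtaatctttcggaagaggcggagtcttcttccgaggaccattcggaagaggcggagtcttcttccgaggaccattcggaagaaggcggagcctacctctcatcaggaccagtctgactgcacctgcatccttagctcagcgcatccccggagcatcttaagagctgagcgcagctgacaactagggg
SYT1 holds 1 GGGCGG and 2 CCAAT matches and 15 CpG dinucleotides, SYT9 2 GGGCGG matches and 33 CpG, and SYT11 none of the 6 motifs and 22 CpG.

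RefSeq promoters were found for 47 of the 59 genes. GGGCGG stood in 35 of the 47 and in 45% of all 35116 promoters of that length, and CCAAT in 14 of 47 and in 34.6%. TATAAA, bound by the TATA-binding protein, was found in 1 of 47 and in 11.5% of all. TGACGTCA, the cyclic AMP response element, was found in 2 of 47 and in 1.85%, TGANTCA, the AP-1 element, in 2 and 7.71%, and CACGTG, an E-box, in 7 and 7.26%. Such matches describe the letters of these windows only. The median number of CpG dinucleotides was 26 in the 47 promoters and 14 in all 35116, and its part in the motif counts was not tested. The RefSeq starts of SYT1 and SYT9 lie inside the genes as annotated by GENCODE 44, at positions 78863993 to 79452008 of chromosome 12 (SYT1, ENSG00000067715) and 7238778 to 7469043 of chromosome 11 (SYT9, ENSG00000170743), and which start the cells used was not measured.

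The make-up of the synaptotagmins differed between the lines. In CPM per kilobase of annotated exon (RPKM), the 18 genes together reached 49.1 ± 1.98 in PANC1OR and 8.68 ± 0.670 in PANC1 (SD, n = 3 each). SYT9 made up 64.4 ± 2.77% of this sum in PANC1OR and 18.1 ± 1.07% in PANC1. SYT1 made up 23.9 ± 5.23% in PANC1OR and 4.98 ± 1.196% in PANC1. These shares rest on annotated exon lengths of 4774 bases for SYT9 and 9463 for SYT1, and which isoforms the cells used was not measured. SYT11 was the leading synaptotagmin of PANC1, with 41.2 ± 2.49% of the sum there against 3.25 ± 0.298% in PANC1OR. SYT17, known from the Golgi and endosomes of rodent neurons, had 6.31 ± 1.46% in PANC1OR and 25.1 ± 1.07% in PANC1, yet its own level was 3.08 ± 0.578 and 2.17 ± 0.0803 RPKM and was not called (adjusted p = 0.16 by edgeR).

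**Figure D2:**
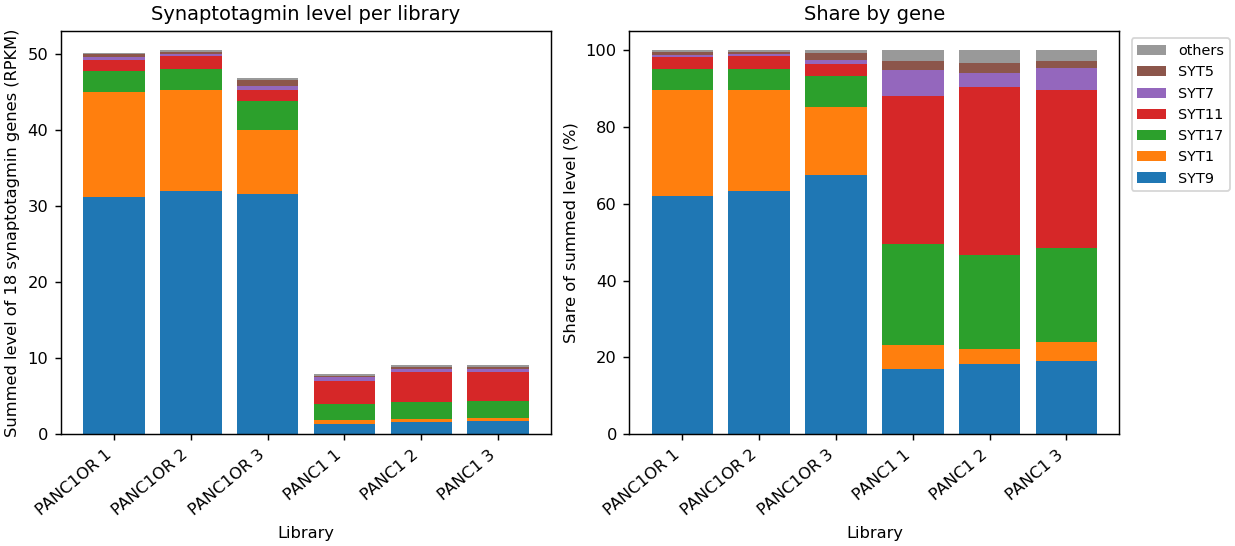
Summed level of the 18 synaptotagmin genes (RPKM, left) and share of each gene in that sum (%, right) for the 3 PANC1OR and 3 PANC1 libraries. SYT9 and SYT1 fill most of each PANC1OR bar, and SYT11, SYT17 and SYT9 most of each PANC1 bar.

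The other synaptotagmins were low or silent. SYT7, a slow calcium sensor of granule and lysosome exocytosis, was at 2.37 ± 1.08 CPM in PANC1OR and 3.46 ± 0.738 in PANC1, SYT5, of dense-core granules, at 2.68 ± 1.26 and 1.06 ± 0.199, and SYT2, a close relative of SYT1, at 0.871 ± 0.162 and 0.771 ± 0.219, and none of these was called. SYT4, SYT6, SYT10, SYT13 and SYT14 had 0 reads in the 6 libraries, which allows up to 0.0547 CPM in PANC1OR and 0.0715 CPM in PANC1 by a floor of 3 reads over the group, for counting error only. The remaining 6, SYT3, SYT8, SYT12, SYT15, SYT15B and SYT16, had 1 to 20 reads over a line and were not tested, and reads of the copies SYT15 and SYT15B may be split between them.

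The synaptotagmin-like genes were nearly all SYTL2. Its protein, a RAB27 effector also called SLP2, anchors secretory granules and melanosomes at the plasma membrane. SYTL2 (ENSG00000137501, GRCh38 chromosome 11, 85694224 to 85811159, minus strand) was at 505, 498 and 331 CPM in PANC1OR, against 159, 134 and 151 CPM in PANC1. PANC1OR replicate 3 was the lowest of its line and still above each PANC1 library. The log2 fold change was 1.58 ± 0.22 (adjusted p = 0.00172 by edgeR). SYTL2 held 97.0 ± 2.29% of the summed RPKM of the 5 SYTL genes in PANC1OR and 91.8 ± 0.381% in PANC1. SYTL1, another RAB27 effector, was at 2.88, 3.00 and 7.84 CPM in PANC1OR and 3.91 ± 0.418 CPM in PANC1, with a log2 fold change of 0.21 that turned to -0.41 without PANC1OR replicate 3 (adjusted p = 0.136 by edgeR). SYTL3 was at 0.666 ± 0.163 CPM in PANC1OR and 1.18 ± 0.311 in PANC1, and neither gene was called, while SYTL4 and SYTL5 were too low to be tested. The 5 genes summed to 40.6 ± 8.19 RPKM in PANC1OR and 14.3 ± 1.17 in PANC1.

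Of the 16 syntaxins, all tested, 4 rose and none fell by the same edgeR test, beside 10.3% and 7.5% of all tested genes. At an unadjusted p under 0.05, 5 were higher and none lower, beside 16.5% and 13.4% of all tested genes, and DESeq2's test called 5 higher and none lower, beside 12.1% and 9.56% (21.7% in all). The 4 that rose include STX1A and STX3, which act at the plasma membrane, and STX11, a syntaxin known from the granules of cytotoxic lymphocytes. The other 12, most of them of the Golgi, endosomes and endoplasmic reticulum, were not called and had log2 fold changes from -0.18 (STX2) to 0.70 (STX16, of the trans-Golgi, edgeR adjusted p = 0.0736).

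STX11 (ENSG00000135604, GRCh38 chromosome 6, 144150487 to 144191939, plus strand) was at 2.50, 2.44 and 2.48 CPM in PANC1OR, against 0.436, 0.313 and 0.428 CPM in PANC1. The lines lay far apart and each was tight, at 136 reads in all in PANC1OR and 17 in PANC1 (2.60 ± 0.32, adjusted p = 0.00094 by edgeR). Its level per length, 0.429 and 0.0682 RPKM, was the lowest of the syntaxins in both lines. STX3 (ENSG00000166900, GRCh38 chromosome 11, 59713456 to 59805882, plus strand), which takes part in apical delivery in epithelial cells, was at 60.7, 60.9 and 54.6 CPM in PANC1OR, against 30.1, 33.9 and 29.4 CPM in PANC1 (0.92 ± 0.18, adjusted p = 0.00965). The lines did not overlap, but the call was lost without PANC1OR replicate 1 (adjusted p = 0.056) and without replicate 1 or 3 of PANC1 (0.0687 and 0.0756).

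STX1A (ENSG00000106089, GRCh38 chromosome 7, 73699206 to 73719672, minus strand), the syntaxin of synaptic and granule exocytosis, was at 62.9, 63.6 and 136 CPM in PANC1OR, against 35.0, 34.3 and 34.4 CPM in PANC1. PANC1OR replicate 3 was well above the other PANC1OR libraries. The GC content of STX1A is 60.2%, in the range where that library ran high, and the part of this in the result was not tested. The log2 fold change was 1.34 ± 0.32 (adjusted p = 0.0229 by edgeR), and without PANC1OR replicate 3 it was 0.86 ± 0.10 (adjusted p = 0.000331). With GC offsets and 6 libraries it was 1.24 (edgeR adjusted p = 3.6e-05). The call was lost without PANC1 replicate 1, 2 or 3, where the adjusted p was 0.093 to 0.103.

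**Figure D3:**
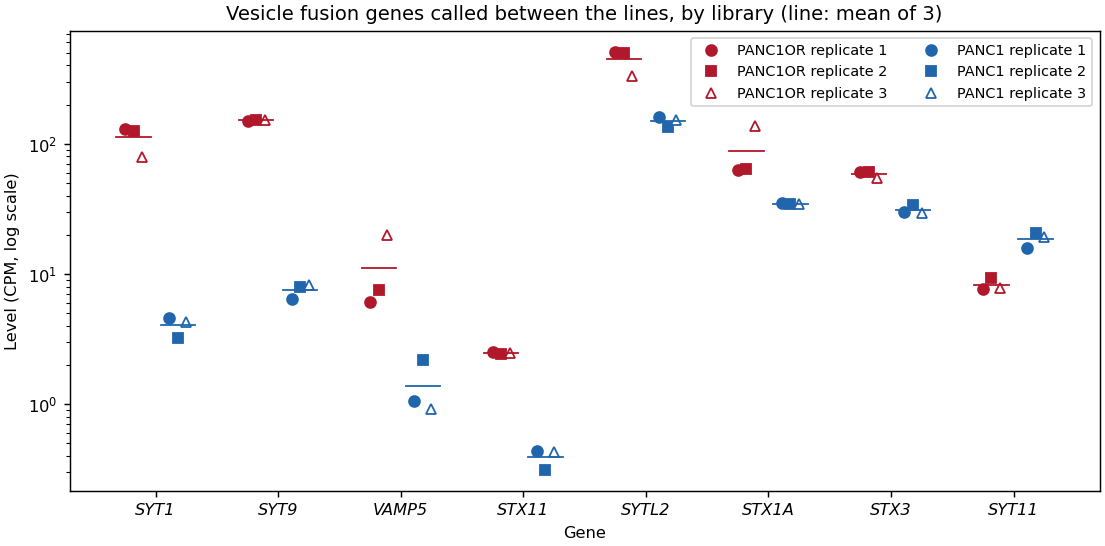
Level in CPM (log axis) of 8 called genes in each library, with PANC1OR in red left of PANC1 in blue and a line at each mean. The lines do not overlap in any of the 8 genes, and replicate 3 of PANC1OR (red open triangle) is high for VAMP5 and STX1A and low for SYT1 and SYTL2.

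Per length, STX1A led the syntaxins of PANC1OR at 23.7 ± 11.4 RPKM (17.1 without replicate 3), and each of its PANC1OR libraries lay above those of STX2 (a plasma membrane syntaxin) at 14.2 ± 1.42 and STX16 at 13.3 ± 1.85, which do not differ beyond their spread. STX10, a trans-Golgi syntaxin, was at 10.1, 10.7 and 28.8 RPKM in PANC1OR, a mean of 16.5 that fell to 10.4 without replicate 3, below STX2 and STX16. In PANC1 the first was STX2 at 16.1 ± 0.732 RPKM, with STX10 at 11.0 ± 4.23 and STX1A at 9.35 ± 0.106. The PANC1 libraries of STX10 were at 7.73, 15.8 and 9.43 RPKM, highest in replicate 2, which ran high for GC-rich genes. STX10 and STX1A are thus not ranked there. STX4, the widely expressed plasma membrane syntaxin, was at 9.13 ± 3.03 RPKM in PANC1OR and 7.85 ± 2.27 in PANC1 (adjusted p = 0.696 by edgeR).

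Among the vesicle SNAREs, VAMP5 was the only call of 7, or 14.3%, beside 17.8% of all tested genes. VAMP5 (ENSG00000168899, GRCh38 chromosome 2, 85584431 to 85593406, plus strand), known from skeletal and heart muscle and without a settled part in fusion, was at 6.09, 7.49 and 19.8 CPM in PANC1OR, against 1.06, 2.19 and 0.917 CPM in PANC1. The lines did not overlap, and in each line the library that ran high for GC-rich genes held the highest value. The log2 fold change was 3.04 ± 0.56 (adjusted p = 0.00729 by edgeR), 2.36 ± 0.32 without PANC1OR replicate 3 and 2.91 with GC offsets. In the fits without 1 library the edgeR adjusted p was at most 0.0493. VAMP8, an epithelial and endolysosomal VAMP, lies 2.4 kb from VAMP5 on chromosome 2 and was at 27.8 ± 10.2 CPM in PANC1OR and 18.1 ± 6.35 in PANC1 (0.62 ± 0.34, adjusted p = 0.278).

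The VAMP5 promoter on GRCh38.p14 (chr2:85584181-85584480, plus strand) is printed because its motif content differs from that of the 3 synaptotagmin promoters printed, with 4 GGGCGG matches on the opposite strand, shown in capitals, and 32 CpG.
VAMP5: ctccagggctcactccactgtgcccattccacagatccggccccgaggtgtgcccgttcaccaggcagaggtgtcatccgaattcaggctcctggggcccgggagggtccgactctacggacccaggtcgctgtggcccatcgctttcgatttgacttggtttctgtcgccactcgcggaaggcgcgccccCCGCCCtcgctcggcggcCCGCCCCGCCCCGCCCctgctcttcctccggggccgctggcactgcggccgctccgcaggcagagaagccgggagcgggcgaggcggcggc
The last 3 of these matches follow each other closely and overlap in part.

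The other 6 VAMPs were not called. VAMP3, also called cellubrevin, which recycles endosomal membrane to the cell surface, was at 38.3 ± 8.61 RPKM in PANC1OR and 40.2 ± 1.67 in PANC1 (log2 fold change -0.07 ± 0.21), and VAMP2, its neuronal and endocrine relative, at 10.3 ± 1.08 and 8.60 ± 0.572 (0.27 ± 0.19). VAMP7, of lysosomal exocytosis, was at 18.6 ± 6.37 and 27.5 ± 4.06 RPKM (-0.56 ± 0.29). VAMP8 stood at 31.0 ± 11.4 and 20.2 ± 7.09 RPKM, VAMP4 at 3.63 ± 1.60 and 2.92 ± 0.559, and VAMP1 at 2.67 ± 0.337 and 2.75 ± 0.296 RPKM. A test not passed does not show equal levels.

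Of the 12 tested STXBP, SNAP, NSF and NAPA genes none was called by edgeR, beside 17.8% of all tested genes. At an unadjusted p under 0.05, 4 were higher and 2 lower, beside 16.5% and 13.4% of all tested genes, and DESeq2's test called 2 higher and none lower, beside 12.1% and 9.56%. SNAP23, the SNAP of non-neuronal cells, was at 30.5, 28.7 and 20.7 CPM in PANC1OR, against 16.8, 19.5 and 15.9 CPM in PANC1 (0.62 ± 0.23, adjusted p = 0.108). The lines did not overlap, with PANC1OR replicate 3 the lowest of its line. SNAP25, the neuronal SNAP and the partner of SYT1 and STX1A in nerve terminals, had 64 reads over PANC1OR and 23 over PANC1, or 1.12 ± 0.190 and 0.517 ± 0.218 CPM (1.07 ± 0.40, adjusted p = 0.108). SNAP29, of autophagosome fusion, was at 26.7 ± 1.75 and 34.5 ± 5.92 CPM, and SNAP47, a widely expressed SNAP, at 30.7 ± 10.1 and 33.5 ± 4.42 CPM. NSF was at 41.0 ± 6.303 CPM in PANC1OR and 51.8 ± 2.68 in PANC1 (-0.34 ± 0.19), and NAPA at 17.4 ± 5.4 and 19.6 ± 2.97 CPM (-0.17 ± 0.27).

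STXBP2, which binds STX3 and STX11, was at 12.0, 9.55 and 28.7 CPM in PANC1OR, against 6.54, 6.69 and 5.44 CPM in PANC1 (1.42 ± 0.42, adjusted p = 0.051 by edgeR). The lines did not overlap, and STXBP2 was highest in PANC1OR replicate 3, at a GC content of 57.3%. Without that library the log2 fold change was 0.80 ± 0.18 (adjusted p = 0.00795 by edgeR). STXBP3, a partner of STX4, was at 7.02 ± 2.66 RPKM in PANC1OR and 5.28 ± 0.53 in PANC1 (0.41 ± 0.31). STXBP4 and STXBP5, a regulator of glucose transporter traffic and the fusion inhibitor tomosyn, stood at -0.72 ± 0.26 and -0.65 ± 0.28 and were not called. STXBP5L, a second tomosyn, was at 4.23 ± 1.82 and 4.70 ± 1.007 CPM, and STXBP6 had 1 read in each line.

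Without PANC1OR replicate 3, 17 of the 45 genes were called higher and 5 lower, beside 22.1% and 22% (44.1% in all) of the genes tested in that fit. Its spread within PANC1OR comes from replicates 1 and 2 alone, which were closer to each other than any other pair of libraries. With GC offsets 14 were called higher and 7 lower, beside 18.3% and 21.3% (39.6% in all). Genes called in both of these fits beyond the 9 calls include SNAP23, STX16, STXBP2 and SYT5, which were higher, and STXBP4, which was lower. Of these 2 fits, the one without that library alone called SNAP25, STX17, STXBP3 and VAMP4 higher and NAPA, SNAP47 and SYT7 lower. The one with offsets alone called SYT17 higher and NSF, SNAP29, STX7, STXBP5 and VAMP7 lower.

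**Figure D4:**
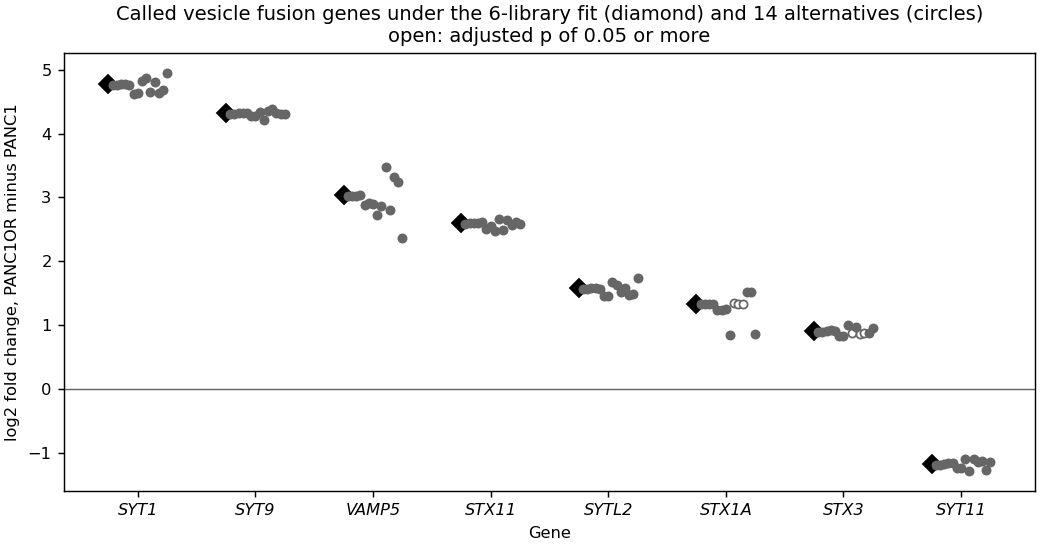
Log2 fold change (vertical axis) of 8 called genes with 6 libraries (diamond) and under 14 other settings (circles), open where the adjusted p was 0.05 or more. The open circles belong to STX1A and STX3, and no plotted gene changes direction.

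Other genes of the same pathway were grouped into 7 lists by function, 131 genes of which 108 were tested. Of these 16 were higher and 7 lower, 21.3% in all beside 17.8% of all tested genes, with a median log2 fold change of 0.14. The list of secretory vesicle Rabs and their regulators had 8 higher and 1 lower of 20 tested, with a median of 0.53. Over all tested genes 10.3% were called higher and 7.5% lower. Without PANC1OR replicate 3 the list had 12 and 3, beside 22.1% and 22% (44.1% in all) of the genes tested in that fit.

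RAB27B and RAB27A, the GTPases that SYTL2 binds on secretory granules, were both higher. RAB27B was at 300.4, 322 and 104 CPM in PANC1OR, against 5.91, 4.28 and 5.20 CPM in PANC1 (5.55 ± 0.48, adjusted p = 0.000178 by edgeR). RAB27A was at 19.9, 20.7 and 13.2 CPM in PANC1OR, against 3.80, 3.86 and 3.36 CPM in PANC1 (2.29 ± 0.26, adjusted p = 0.00066). In both genes PANC1OR replicate 3 was the lowest of its line, and the lines did not overlap. MLPH, which encodes melanophilin, a RAB27A effector that binds myosin Va, was at 256, 241 and 407 CPM in PANC1OR, against 62.3, 66.5 and 59.2 CPM in PANC1 (2.27 ± 0.24, adjusted p = 0.000514). MYRIP, the RAB27A effector that binds myosin VIIa, was the 1 fallen gene of this list, at -2.07 ± 0.30, and was named after its value was seen. These 4 calls were kept in each fit without 1 library, with adjusted p of at most 0.0168. The other higher genes of this list were RAB3B, whose call was also kept, and RAB37, RAB3A, MYO5B and RAB3IP. RAB37 lost its call without PANC1 replicate 2 or 3, and RAB3A without PANC1 replicate 1 or 3 (edgeR adjusted p up to 0.0785 and 0.0952). MYO5B and RAB3IP kept theirs only without PANC1OR replicate 3, with adjusted p up to 0.153 and 0.142 in the other fits without 1 library.

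Among priming and clamping factors 3 were higher and 1 lower of 17 tested, or 23.5% beside 17.8% of all tested genes. CADPS2, a priming factor of dense-core vesicles, was at 12.9 ± 1.41 CPM in PANC1OR and 1.12 ± 0.410 in PANC1 (3.49 ± 0.31, adjusted p = 0.000205 by edgeR), and RIMS2, an active zone scaffold, was higher by 1.2 ± 0.24, with an adjusted p of 0.0523 without PANC1 replicate 3. RIMS1, its relative, was higher at a low level, with 80 reads over PANC1OR and 10 over PANC1 (2.56 ± 0.44). The 1 fallen gene was CPLX2, which encodes a complexin that clamps and promotes fusion, with 7 reads over PANC1OR and 32 over PANC1 (-2.52 ± 0.46, adjusted p = 0.00654 by edgeR, and 0.0509 without PANC1OR replicate 1). Of 9 further C2-domain genes 2 were higher and 2 lower, beside 10.3% and 7.5% of all tested genes. MYOF, the membrane repair ferlin, was at 1739.8 ± 153 CPM in PANC1OR and 737 ± 74.4 in PANC1 (1.24 ± 0.18), and OTOF, the ferlin of inner hair cells, at 0.276 ± 0.133 and 2.83 ± 0.0876 CPM (-3.28 ± 0.39). ESYT3, an extended synaptotagmin of membrane contact sites, stood at -1.34 ± 0.28, and its call was lost without PANC1 replicate 1 or 3 (adjusted p = 0.0541 and 0.0753).

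Of 17 tested genes of synaptic and dense-core vesicle cargo and membrane 2 were higher and 15 were not called, or 11.8% called beside 17.8% of all tested genes. VGF, a neuropeptide precursor, was at 48.1, 37.7 and 184 CPM in PANC1OR, against 7.66, 10.4 and 7.09 CPM in PANC1 (3.43 ± 0.62, adjusted p = 0.00657 by edgeR), at a GC content of 70.5%. The highest VGF library in each line was the one that ran high for GC-rich genes, and without PANC1OR replicate 3 the log2 fold change was 2.36 ± 0.19. SV2A, a synaptic vesicle glycoprotein, was higher by 1.27 ± 0.27 and lost its call without PANC1 replicate 1 or 3 (adjusted p = 0.0777 and 0.0861).

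In the lists of general machinery 1 of 14 other SNAREs, 1 of 9 exocyst genes and 2 of 22 Golgi and endosome tethers were called, or 7.14%, 11.1% and 9.09% beside 17.8% of all tested genes. PLEKHM1, an adaptor of lysosome fusion, was at 67.4 ± 28.5 CPM in PANC1OR and 14.2 ± 1.66 in PANC1 (2.24 ± 0.31, adjusted p = 0.00196). GOSR1, a Golgi SNARE, stood at -0.74 ± 0.17, EXOC2, an exocyst subunit, at -0.70 ± 0.20, and VPS8, an endosomal tether subunit, at -0.88 ± 0.24. The calls of these 3 were lost without at least 4 of the 6 libraries in turn, with adjusted p up to 0.095, 0.164 and 0.158, each of them also without PANC1 replicate 3. Without PANC1OR replicate 3 the share of all genes called was 22.1% higher and 22% lower. There 4 priming and clamping factors were higher and 5 lower, 3 and 2 C2-domain genes, 3 and 6 cargo and membrane genes, 4 and 2 other SNAREs, 2 and 2 exocyst genes, and 6 and 4 tethers.

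**Figure D5:**
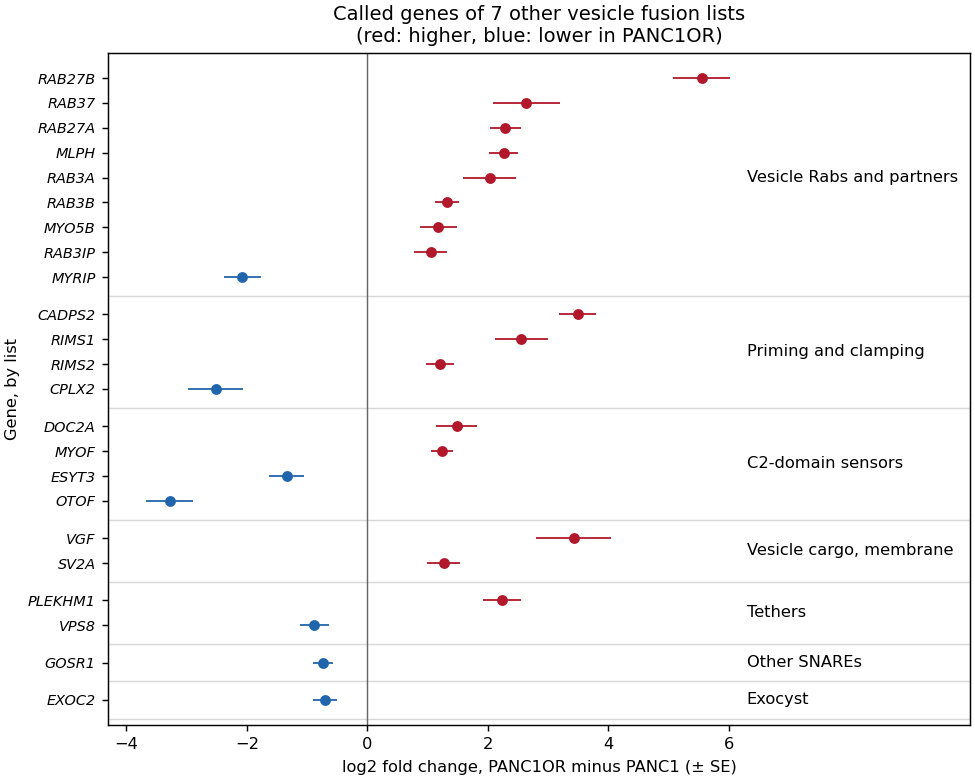
Log2 fold change (PANC1OR minus PANC1, ± SE) of the 23 called genes of the 7 other lists, red where higher and blue where lower in PANC1OR. RAB27B is farthest to the right at 5.55 and OTOF farthest to the left at -3.28.

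Because SYT1, STX1A and SNAP25 are neuronal and endocrine genes, further markers of those cells were read beside them. Of 7 such markers that are not among the 59 genes, NEUROD1 had 0 reads in all libraries, INSM1 had reads in 1 PANC1 library only, and CHGA was at 0.304 ± 0.113 CPM in PANC1OR and 0.302 ± 0.175 in PANC1. SYP, a synaptic vesicle marker, was at 10.5 ± 4.29 and 18.4 ± 4.23 CPM and was not called (adjusted p = 0.136 by edgeR), and ENO2, an enolase, rose to 103 ± 39.2 CPM in PANC1OR against 28.5 ± 1.92 in PANC1 (1.85 ± 0.28). The summed level of the 7 was 89.0 to 165 CPM in PANC1OR and 44.4 to 51.5 CPM in PANC1, and ENO2 made up most of it. Since STX11 is known from lymphocytes, leukocyte markers were read as well: PTPRC was at 0.294 ± 0.209 and 0.0411 ± 0.0356 CPM, CD3E had 0 reads, and the 5 genes summed to 2.28 to 4.95 CPM in PANC1OR and 0.245 to 0.436 CPM in PANC1. Most of this was CD14, a monocyte marker, at 1.91, 2.00 and 4.62 CPM in PANC1OR, against 0.374, 0.313 and 0.183 CPM in PANC1, which was called higher (3.24 ± 0.53, adjusted p = 0.00412 by edgeR). Of 6 fibroblast markers the 3 tested were not called, and the sum of the 6, 114 to 299.6 CPM in PANC1OR and 83.4 to 99.2 CPM in PANC1, was nearly all COL1A1. Their part in the result was not tested.

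Position was compared for SYT1, SYT9 and SYTL2, the 3 risen genes of at least 20 CPM with the highest fold changes, through the 3 nearest protein-coding genes on each side. Around SYT1 on chromosome 12, 4 of 5 tested neighbours were higher in PANC1OR, beside 10.3% of all genes. NAV3, a microtubule-binding neuron navigator gene that ends 651 kb before SYT1, was at 57.2 ± 7.32 CPM in PANC1OR and 1.501 ± 0.443 in PANC1 (5.22 ± 0.29, adjusted p = 3.1e-05 by edgeR). E2F7, CSRP2 and PAWR were higher by 1.02 ± 0.19, 1.13 ± 0.27 and 0.92 ± 0.25. Their calls were lost without PANC1 replicate 1 or 3, and for CSRP2 and PAWR also without PANC1 replicate 2 or PANC1OR replicate 1 or 2, with adjusted p up to 0.0522, 0.0971 and 0.173. Around SYT9, PPFIBP2, a liprin gene 44.3 kb away, was lower, at -1.36 ± 0.20, beside 7.5% of all genes. ZNF214 was higher by 1.05 ± 0.30, a call lost in 5 of the 6 fits without 1 library (adjusted p up to 0.19). The other tested neighbours of SYT9, OLFML1 (16.3 kb away) and CYB5R2, were not called, at -0.52 ± 0.45 and -0.34 ± 0.25. Of the 5 tested neighbours of SYTL2 none was called by edgeR or by DESeq2's test and none had an unadjusted p under 0.05, with log2 fold changes from -0.21 to 0.61. The 3 genes and their neighbours were chosen after their values were seen.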

How the data were processed

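The authors deposited raw read counts per gene for 3 cultures of each line, made with an mRNA library kit. Per the submitters' notes and design text, the tools were Trim Galore 0.4.2 with cutadapt for trimming, STAR 2.5 for alignment to GRCh38 and featureCounts (Subread 1.6.2) for counting. The sources used here give neither the annotation release nor the settings for strand and multi-mapping reads. A further 5 columns were empty and not used. Some genes that enter the counts are not reported here.

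After filterByExpr and TMM scaling (edgeR 4.0.16 in R 4.3.3), PANC1OR was compared with PANC1 by edgeR's quasi-likelihood F test, with no covariate, in place of the authors' likelihood ratio test. A call is an adjusted p under 0.05 over all tested genes. The SE is the size of the log2 fold change over the root of F. CPM uses TMM-adjusted totals, and RPKM divides CPM by the joined exon length of all isoforms in GENCODE 44, in kilobases. Promoters are from RefSeq. No 2 libraries agreed within sampling noise. Chi-square per degree of freedom, which grows with the difference between 2 libraries, was lowest between PANC1OR replicates 1 and 2, at 3.59. It was 122 and 97.6 between these and PANC1OR replicate 3, and 10.7 to 31.1 within PANC1.

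Called genes among the 59 with a mean of at least 1 CPM are given per library, the 2 genes of each family with the highest RPKM are named, as are up to 3 called genes of each list with the smallest p at a mean of at least 1 CPM. SNAP23, STXBP2, MYRIP, RAB3B, RAB37, RAB3A, MYO5B, RAB3IP, RIMS1, CPLX2, CD14 and the neighbours were picked after their values were seen. The same holds for the levels without PANC1OR replicate 3. The genes and lists were chosen with earlier results of these data known. Alternatives were the size factors and the test of DESeq2 1.42.0, the likelihood ratio test, no filter, a replicate block, GC offsets and leaving out 1 or 2 libraries.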

Additional observations from a re-analysis of the deposited data

How the results depend on the processing

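The size factors and test of DESeq2, the likelihood ratio test and the fit without a filter kept the counts of calls within 1.5 times of those with 6 libraries. With GC offsets 7424 genes were called in place of 3345, with 14 of the vesicle fusion genes higher and 7 lower, and 30 and 23 of the other lists. With a replicate block and GC offsets these were 6436, 13, 5, 28 and 19, and without PANC1 replicate 2 and PANC1OR replicate 3 together 11422, 22, 10, 41 and 31. These fits called 39.6%, 34.3% and 58.5% of all tested genes. Without 1 library the counts ranged from 1821 to 8663 over all genes, with 5 to 17 higher and 1 to 5 lower for the vesicle fusion genes, and 9 to 34 higher and 3 to 24 lower for the other lists. The highest were without PANC1OR replicate 3 and the lowest over all genes without PANC1 replicate 3 (1821) and PANC1 replicate 1 (1920), and each of these 2 fits called 5 of the vesicle fusion genes higher. The cause was not tested.

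The correlations of deviations between same-numbered libraries were 0.44, -0.43 and -0.21, and PANC1OR replicates 2 and 3 correlated best with another number. The highest correlation, 0.49, joined PANC1OR replicate 3 and PANC1 replicate 2, the libraries that ran high for GC-rich genes. With that trend present, the correlations cannot show if same-numbered cultures were handled together. With the replicate block 2324 genes were called, with 8 of the vesicle fusion genes higher and 1 lower, and 4 genes of the other lists lower in place of 7. No direction of a called gene reversed. At this depth 9 genes with reads, among them SYT3 and SYTL5, were too low to be tested.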
